A study of Mus musculus with 4 samples.

Results

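The 31 transcripts described here mark microglia, the resident macrophages of the brain, and were read in punches of the prelimbic cortex, a medial prefrontal area that rodents use in working memory and social recognition. They are a named list, and all 31 of the 31 had at least 1 probe set annotated to that gene alone, out of 18193 genes with such a probe set. Where a gene had several, the brightest on average stands for it, and the others serve as a check. The mice were males on postnatal day 90. The comparison set 2 arrays from mice exposed to fluoxetine before birth, a selective serotonin reuptake inhibitor, against 2 arrays from untreated mice. The labels give neither the strain, the dose nor the days of exposure, and they leave unsaid whether RNA of 1 mouse or a pool went on each array and how many litters were sampled.

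Microglia enter the brain from the yolk sac in the embryo and then maintain themselves there. They depend on the receptor encoded by Csf1r, survey the tissue with processes steered by purine receptors, and clear debris and synapses with the help of complement C1q and of receptors that signal through the adaptor protein of Tyrobp. In the cortex they are known for pruning synapses during development, a process in which fractalkine from neurons and its microglial receptor Cx3cr1 take part. Serotonin receptors have been described on these cells.

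On the log2 scale the arrays had medians of 6.44 and 6.47 with fluoxetine and 6.50 and 6.48 without, and they correlated at 0.996 to 0.997 over all probe sets. Untreated replicate 2 stood apart in markers of striatal neurons and of oligodendrocytes. All 6 measured striatal neuron markers and 6 of the 7 measured oligodendrocyte markers were highest on it, against 36.1% of all genes. Fluoxetine replicate 1 carried more Ttr, the transthyretin transcript that is abundant in choroid plexus, with 11.71 against 8.09 on fluoxetine replicate 2 and 6.67 and 8.97 on the untreated arrays. All 7 measured markers of cortical neurons had mean log2 levels above the median of all genes, but so had 5 of the 6 measured striatal, 7 of the 7 oligodendrocyte and 6 of the 7 astrocyte markers, so these levels do not tell cortex from neighbouring tissue. Of the microglia genes, 22 of the 31 had a mean level above that median, 7.87. An exact two-sided permutation test of 2 arrays against 2 cannot give a p below 0.333, so p-values come from limma's model across all genes and measure the spread between these arrays.

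Most microglia transcripts stood slightly lower on the fluoxetine arrays. The difference, as a mean log2 intensity with fluoxetine minus that without, was negative for 26 and positive for 5 of the 31 genes. It ran from −0.31 for Lgals3bp, a secreted glycoprotein gene, to 0.19 for Itgam, the integrin chain CD11b, and its median was −0.08. Over all 18193 genes the median was −0.02 and 57.5% of the differences were negative. No gene passed the correction: 0 microglia genes and 0% of all genes had an adjusted p below 0.05 in limma, and the lowest adjusted p among the microglia genes was 0.696.

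Before the correction, at an unadjusted p below 0.05 in limma, 3 of the 31 were lower, 0 were higher and 28 did not pass. Among all genes 3.51% were lower and 3.45% higher by that rule. The 3 were Lgals3bp, P2ry13 and Tyrobp. The count of lower microglia genes was 1 without fluoxetine replicate 1 (Csf3r), where 1.03% of all genes were lower, and 0 without fluoxetine replicate 2, where 2.79% of all genes were. It was 6 without untreated replicate 1, where Olfml3, C1qc and Ptprc joined the 3 and the share of all genes was also larger, at 6.33%. It was 0 without untreated replicate 2, where 3.57% of all genes were lower. Higher at that threshold were Laptm5 and Itgam without untreated replicate 2, with 4.996% of all genes, and Cx3cr1 without untreated replicate 1, with 3.11% of all genes. Both fluoxetine arrays lay below both untreated arrays for 11 of the 31 genes, and above them for 0. The same arrangements held for 22.3% and 15.5% of all genes. In a bulk sample, fewer microglia and less of these transcripts in each cell cannot be told apart.

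**Figure D1:**
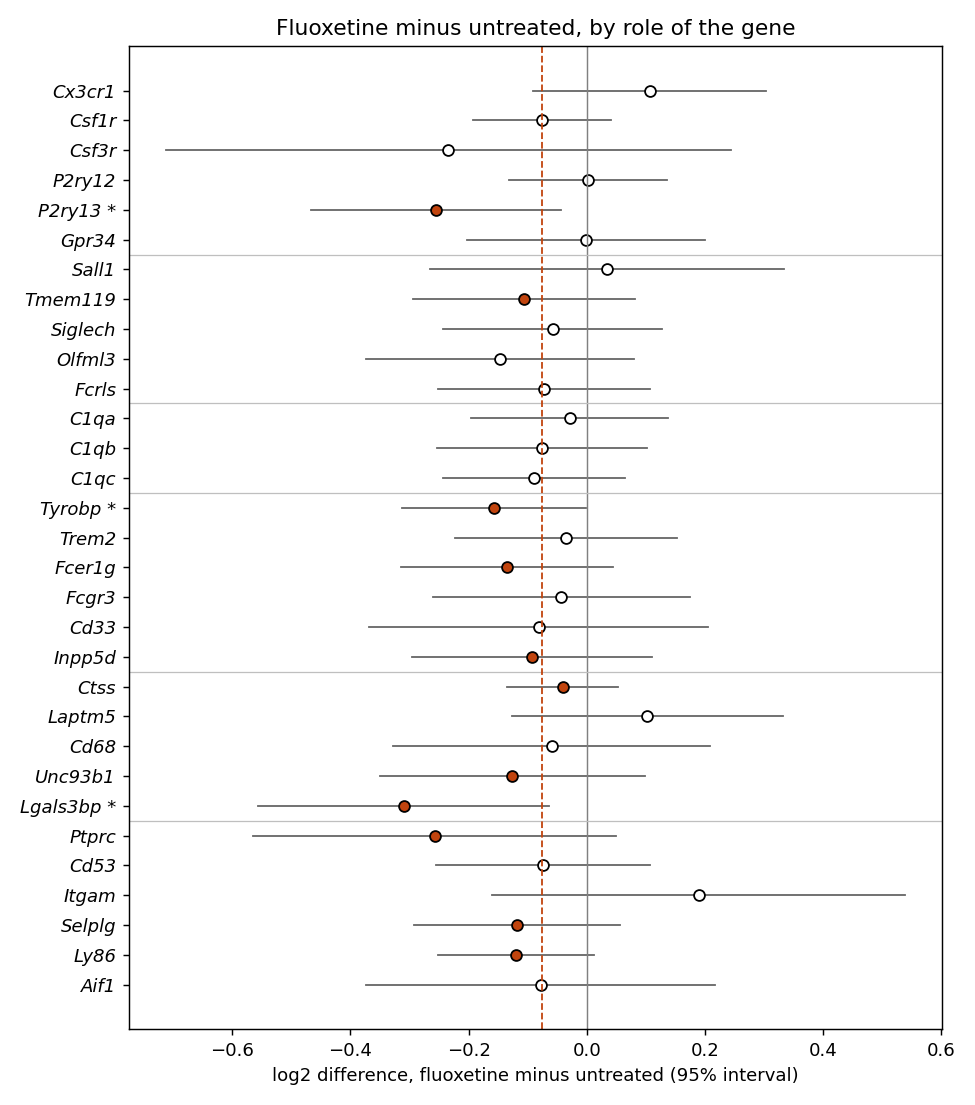
Log2 difference of each microglia gene, fluoxetine minus untreated (horizontal axis), with its 95% interval from limma, n = 2 and 2 arrays. Grey lines part the role groups in the order of the text, filled points are the 11 genes with both fluoxetine arrays below both untreated arrays, asterisks mark the 3 genes at an unadjusted p below 0.05 and the dashed line is the median of the 31 genes, −0.08; 26 of the 31 points lie left of 0.

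The 4 arrays did not form 2 blocks in these genes. Each fluoxetine array was the highest for 2 of the 31 genes, untreated replicate 1 for 8 and untreated replicate 2 for 19. Untreated replicate 2 was thus the highest array for 61.3% of the microglia genes, against 36.1% of all genes. Fluoxetine replicate 1 was the lowest array for 14 genes and fluoxetine replicate 2 for 6, against 7 for untreated replicate 1 and 4 for untreated replicate 2. Of all 18193 genes, 5624 were lowest on fluoxetine replicate 1 and 3801 on fluoxetine replicate 2. Untreated replicate 1 was lowest for 5639 of them and untreated replicate 2 for 3129. The median deviation of the 31 genes from their own means was −0.06 and −0.01 on the fluoxetine arrays and 0.01 and 0.08 on the untreated arrays, so that fluoxetine replicate 2 and untreated replicate 1 lay close together and the other arrays apart from them.

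**Figure D2:**
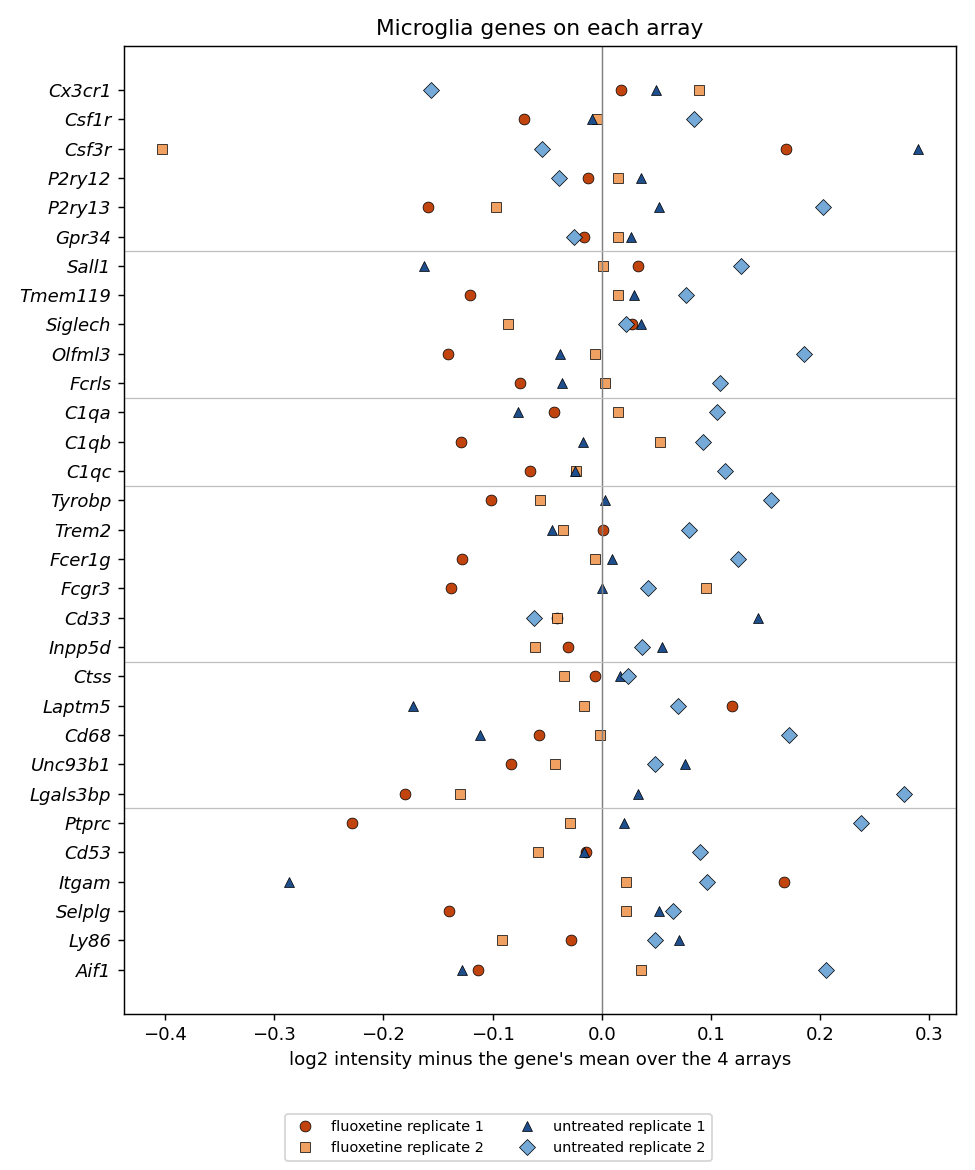
Log2 intensity of each microglia gene on each array, minus the gene's mean over the 4 arrays; grey lines part the role groups. Fluoxetine replicate 1 (dark circles) is the leftmost point for 14 of the 31 genes and untreated replicate 2 (light diamonds) the rightmost for 19. Over all 18193 genes these arrays were lowest for 5624 and highest for 6571. For Cd33 the 2 fluoxetine points coincide.

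Among the 6 surface receptors 1 was lower at an unadjusted p below 0.05, against 3.51% of all genes, and the other 5 did not pass. P2ry13, a receptor for ADP, read 7.89 and 7.95 with fluoxetine, against 8.10 and 8.25 in untreated mice. All 4 values were ordered by group, the log2 difference was −0.26 (SE 0.09, n = 2 and 2), equal to 0.838 of the untreated level, and limma gave an adjusted p of 0.701, with the unadjusted p below 0.05. Its difference was −0.18 without untreated replicate 2. P2ry12, the other ADP receptor of microglia and the one that steers their processes toward injury, read 10.026 and 10.053 with fluoxetine and 10.074 and 9.999 without. Its difference was 0.00 (SE 0.06), with a 95% interval from −0.13 to 0.14, and it turned negative after another quantile normalization (−0.03). Whether P2ry13 and P2ry12 differ from each other in response was not tested. Gpr34, a lysophosphatidylserine receptor encoded on the X chromosome, read 7.74 and 7.77 with fluoxetine and 7.78 and 7.73 in untreated mice. Its groups overlapped, with a difference of −0.00 (SE 0.09).

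Csf1r, the receptor whose signal keeps microglia alive, read 11.82 and 11.89 with fluoxetine and 11.88 and 11.98 in untreated mice. Fluoxetine replicate 2 just overlapped untreated replicate 1, and the log2 difference was −0.08 (SE 0.05). Its other 2 probe sets were dimmer, with means of 9.88 and 9.70 with fluoxetine. They differed by −0.18, with separated groups, and by −0.01. The former passed an unadjusted p of 0.05 in limma's fit over all probe sets, with an adjusted p of 0.523. Csf3r, the receptor for granulocyte colony-stimulating factor, was the least steady receptor transcript, at 7.08 and 6.51 with fluoxetine and 7.20 and 6.86 without, and its difference of −0.23 (SE 0.20) turned to 0.05 without fluoxetine replicate 2.

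Cx3cr1, the fractalkine receptor, ran against the list. Its brighter probe set read 9.29 and 9.36 with fluoxetine and 9.32 and 9.12 in untreated mice. There the groups overlapped, and the difference of 0.11 (SE 0.08) was 0.0037 without untreated replicate 2. Its dimmer probe set read 7.02 and 7.17 with fluoxetine, against 6.67 and 6.60 in untreated mice. There the groups were apart, and the difference was 0.46 (SE 0.11), which passed an unadjusted p of 0.05 in limma's fit over all probe sets; its adjusted p there was 0.373. Averaged over both probe sets Cx3cr1 differed by 0.28, again past an unadjusted p of 0.05. The low reading of untreated replicate 2, on which most other members were highest, was seen in both probe sets.

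Windows of 250 bases before the annotated start site are shown for 5 members, to set P2ry13 beside its paralog P2ry12 and beside Lgals3bp, Inpp5d and C1qc. They come from RefSeq, assembly GRCm38.p6, run 5′ to 3′ on the strand of the gene, and have matches to GAGGAAG or AGGAAGT on either strand in capitals. These letters belong to the purine-rich site of PU.1, the myeloid transcription factor encoded by Spi1; the 2 words share AGGAAG and can overlap. The windows lie at chr3:59210883-59211132 on the minus strand (P2ry13), chr3:59262986-59263235 on the minus strand (P2ry12), chr11:118401960-118402209 on the minus strand (Lgals3bp), chr1:87620062-87620311 on the plus strand (Inpp5d) and chr4:136892915-136893164 on the minus strand (C1qc).
P2ry13: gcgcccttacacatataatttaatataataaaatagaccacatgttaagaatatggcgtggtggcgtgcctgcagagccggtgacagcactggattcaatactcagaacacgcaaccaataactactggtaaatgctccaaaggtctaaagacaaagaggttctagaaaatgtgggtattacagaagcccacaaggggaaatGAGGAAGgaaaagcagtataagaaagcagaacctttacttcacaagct
P2ry12: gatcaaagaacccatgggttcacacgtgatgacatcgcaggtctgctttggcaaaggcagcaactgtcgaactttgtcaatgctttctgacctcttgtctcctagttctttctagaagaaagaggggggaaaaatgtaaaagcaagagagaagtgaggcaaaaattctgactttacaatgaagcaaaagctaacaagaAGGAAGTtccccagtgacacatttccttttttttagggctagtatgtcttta
Lgals3bp: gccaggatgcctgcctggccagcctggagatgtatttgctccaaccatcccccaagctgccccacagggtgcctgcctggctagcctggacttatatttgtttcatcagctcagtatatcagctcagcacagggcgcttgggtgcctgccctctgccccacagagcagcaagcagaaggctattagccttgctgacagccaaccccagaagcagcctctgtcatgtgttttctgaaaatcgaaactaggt
Inpp5d: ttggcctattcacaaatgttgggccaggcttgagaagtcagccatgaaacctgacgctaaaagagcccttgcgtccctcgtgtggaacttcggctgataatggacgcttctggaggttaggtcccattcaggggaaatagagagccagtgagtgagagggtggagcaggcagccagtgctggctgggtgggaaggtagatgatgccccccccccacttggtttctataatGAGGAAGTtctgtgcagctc
C1qc: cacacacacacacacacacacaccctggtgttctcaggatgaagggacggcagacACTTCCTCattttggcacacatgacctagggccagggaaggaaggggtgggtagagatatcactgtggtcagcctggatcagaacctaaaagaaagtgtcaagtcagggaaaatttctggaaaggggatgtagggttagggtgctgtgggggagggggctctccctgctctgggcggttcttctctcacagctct
The match began 48 bases before the start in P2ry13, 52 bases in P2ry12 and 20 bases in Inpp5d, where both words overlapped. In C1qc the overlapping words lay on the opposite strand, 195 bases before the start, and the Lgals3bp window held neither word.

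The window was in the table for 24 of the 31 microglia genes. GAGGAAG was found in 10 of the 24 (41.7%) and in 3244 of all 27025 genes with such a window. AGGAAGT was found in 7 of the 24 (29.2%) and in 2377 of all genes, and at least 1 of the 2 words in 14 of the 24 (58.3%) and in 17.2% of all genes. The shorter words GAGGAA and GGAAGT, also searched on both strands, were in 16 of the 24 (66.7%) and 10 of the 24 (41.7%), against 25.9% and 22.2% of all genes. All 4 words searched are given here; which of them to set in capitals, and which 5 windows to print, was chosen after the matches and the array differences had been seen, so the higher shares among the microglia genes are a description and carry no test. These are matches of letters, and no binding was measured. P2ry12, with a difference of 0.00, held a match at about the same distance as P2ry13. Lgals3bp, with the largest negative difference of the 31, held none. Whether the matches bear on the array differences was not tested.

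The 5 genes that identify resident microglia had a median difference of −0.07, with 4 negative and 0 past an unadjusted p of 0.05. Separated groups were seen in 1, lower with fluoxetine, an arrangement that held for 22.3% of all genes. Tmem119, a membrane protein gene used to tell microglia from blood-derived macrophages, read 8.45 and 8.58 with fluoxetine, against 8.60 and 8.64 in untreated mice. The groups did not overlap, though their nearest arrays almost met, and the difference was −0.11 (SE 0.08). Olfml3, a secreted matrix protein gene, read 8.62 and 8.75 with fluoxetine and 8.72 and 8.94 in untreated mice, a difference of −0.15 (SE 0.10). Fcrls, an Fc receptor-like gene, differed by −0.07 (SE 0.08), and both genes were highest on untreated replicate 2. Fcrls stood at 0.0008 without that array. Siglech, a sialic acid-binding lectin gene, differed by −0.06 (SE 0.08). Sall1, the transcription factor that maintains microglial identity, was near even, with 6.94 and 6.91 with fluoxetine and 6.75 and 7.04 in untreated mice, and its difference of 0.03 (SE 0.13) was −0.03 as the mean of its 2 probe sets.

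The 3 chains of C1q, the molecule that starts the classical complement cascade and tags synapses, shared their highest array and did not separate by group. C1qa read 10.35 and 10.41 with fluoxetine and 10.32 and 10.50 in untreated mice. C1qb read 10.16 and 10.34 with fluoxetine and 10.27 and 10.38 in untreated mice, and C1qc 9.93 and 9.98 with fluoxetine and 9.97 and 10.11 in untreated mice. Untreated replicate 2 was the highest array for all 3, and the groups overlapped for all 3. The differences were −0.03 (SE 0.07), −0.08 (SE 0.08) and −0.09 (SE 0.07), and that of C1qa was 0.01 after subtracting array medians and 0.06 without untreated replicate 2. The 95% interval of C1qc, from −0.24 to 0.06, leaves room for a change in either direction.

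All 6 genes of the adaptors that carry ITAM signalling motifs, of the receptors that use them and of their inhibitory partners had negative differences, with a median of −0.09. Past an unadjusted p of 0.05 was 1, and 3 had separated groups. Of all genes 57.5% had negative differences, 3.51% were lower at that p and 22.3% had groups separated in that direction. Tyrobp, the adaptor also called DAP12, read 10.11 and 10.16 with fluoxetine, against 10.21 and 10.37 in untreated mice. Its log2 difference was −0.16 (SE 0.07; limma, adjusted p = 0.711, unadjusted p just below 0.05), and it was −0.08 without untreated replicate 2. Fcer1g, the adaptor of Fc receptors, read 9.05 and 9.17 with fluoxetine, against 9.19 and 9.30 in untreated mice, again without overlap, and differed by −0.13 (SE 0.08). Trem2, the lipid-sensing receptor that pairs with Tyrobp, did not share the separation: it read 8.47 and 8.43 with fluoxetine and 8.42 and 8.55 in untreated mice, and differed by −0.03 (SE 0.08), or 0.0017 after subtracting array medians. Its dimmer probe set differed by −0.33 (SE 0.18) with separated groups.

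Inpp5d, the lipid phosphatase SHIP1 that damps ITAM signals, read 7.64 and 7.61 with fluoxetine, against 7.72 and 7.71 in untreated mice. Replicates lay closer to each other than to the other group, and the difference was −0.09 (SE 0.09, where the SE draws on genes of like intensity). Its dimmer probe set differed by −0.32 (SE 0.10; limma over all probe sets, adjusted p = 0.418, unadjusted p below 0.05), with both fluoxetine arrays again below both untreated arrays. As the mean of both probe sets the difference was −0.21, also past an unadjusted p of 0.05. Fcgr3, a low-affinity receptor for IgG, read 8.58 and 8.81 with fluoxetine and 8.71 and 8.76 in untreated mice, so that the fluoxetine arrays lay on either side of the untreated ones, and differed by −0.04 (SE 0.09). Cd33, a lectin gene, read 6.48 on both fluoxetine arrays and 6.66 and 6.46 in untreated mice. Its difference of −0.08 (SE 0.12) was 0.02 without untreated replicate 1.

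The list of 5 lysosome and endosome genes includes the secreted Lgals3bp. Of these 5, 3 had separated groups, Lgals3bp among them. Lgals3bp was also the 1 gene lower at an unadjusted p below 0.05, and the other 4 did not pass. The shares of all genes were 22.3% with both fluoxetine arrays below both untreated arrays and 3.51% lower at that p. Lgals3bp, which encodes a galectin-binding glycoprotein also induced by interferon, read 7.72 and 7.77 with fluoxetine, against 7.93 and 8.18 in untreated mice. Its log2 difference of −0.31 (SE 0.10; limma, adjusted p = 0.696, unadjusted p below 0.05) was the largest in size among the 31 genes, equal to 0.807 of the untreated level, and it was −0.19 without untreated replicate 2. Unc93b1, which carries Toll-like receptors to endosomes, read 7.14 and 7.18 with fluoxetine, against 7.30 and 7.27 in untreated mice, a difference of −0.13 (SE 0.10). Ctss, the lysosomal protease cathepsin S, had the smallest SE of the 31, at 12.05 and 12.02 with fluoxetine and 12.08 and 12.08 in untreated mice. Its difference was −0.04 (SE 0.04), with a 95% interval from −0.13 to 0.05.

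Cd68, the lysosomal glycoprotein used as a stain for phagocytic microglia, overlapped between groups, with 7.67 and 7.73 with fluoxetine and 7.62 and 7.90 in untreated mice. Its difference of −0.06 (SE 0.11) was 0.08 without untreated replicate 2. Laptm5, a lysosomal membrane protein gene, differed by 0.10 (SE 0.10), and its 5 probe sets ran from −0.26 to 0.10 with overlapping groups in each.

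Of the 6 genes shared with other leukocytes, 3 had separated groups, and 0 passed an unadjusted p of 0.05. Both fluoxetine arrays lay below both untreated arrays in each of the 3, as in 22.3% of all genes. Ptprc, the phosphatase CD45, read 6.52 and 6.72 with fluoxetine, against 6.77 and 6.98 in untreated mice, a difference of −0.26 (SE 0.13). The groups were apart, but the gap between their nearest arrays was narrower than the spread within each group. Ly86, the partner MD-1 of a Toll-like receptor homolog, read 9.94 and 9.87 with fluoxetine, against 10.04 and 10.01 in untreated mice, a difference of −0.12 (SE 0.06; limma, adjusted p = 0.712). Selplg, the P-selectin ligand, read 9.16 and 9.32 with fluoxetine, against 9.35 and 9.36 in untreated mice, a difference of −0.12 (SE 0.07) that came mostly from fluoxetine replicate 1. Cd53, a tetraspanin gene, differed by −0.07 (SE 0.08) and Aif1, the actin-binding protein IBA1, by −0.08 (SE 0.13), both with overlap. Aif1 read 7.86 and 8.01 with fluoxetine and 7.84 and 8.18 in untreated mice, and its difference was 0.09 without untreated replicate 2. Itgam, a chain of the complement receptor CR3, read 7.03 and 6.89 with fluoxetine and 6.58 and 6.96 in untreated mice. Its difference of 0.19 (SE 0.15) rested on untreated replicate 1 and was −0.0017 without it.

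Genes that act around these members were taken from 7 further lists, of which 107 genes outside the 31 were measured. At an unadjusted p below 0.05 in limma 0 of the 107 were higher and 6 lower (5.61%, against 3.51% of all genes), and 0 passed adjusted over all genes. The 6 were Cd84 (−0.38, SE 0.13), an adhesion receptor of the SLAM family, Lair1 (−0.44, SE 0.16), an inhibitory collagen receptor, Gpr84 (−0.30, SE 0.12), a fatty acid receptor named after its values were seen, Clec7a (−0.44, SE 0.14), the lectin dectin-1, Lpl (−0.26, SE 0.10), the lipoprotein lipase, and Pik3cd (−0.31, SE 0.10), a kinase subunit. Clec7a read 5.11 and 5.26 with fluoxetine, against 5.72 and 5.54 in untreated mice, and Clec7a and Lpl belong to the list of 16 measured reactive microglia genes, of which 2 were lower and 14 did not pass. Lair1 read 6.60 on both fluoxetine arrays, against 6.82 and 7.27 in untreated mice. Averaged over each gene's probe sets, Pik3cd stood at −0.08, Cd84 at −0.19, Lair1 at −0.13 and Lpl at −0.25, and these 4 did not pass. Of the 6 genes 0 passed without fluoxetine replicate 1, 3 without fluoxetine replicate 2, 4 without untreated replicate 1 and 2 without untreated replicate 2. In the list of 28 other microglia-enriched genes 3 were lower, 0 higher and 25 did not pass, with a median of −0.07; among 12 ITAM and Fc receptor signalling genes these counts were 1, 0 and 11, with a median of −0.10, and Pik3ap1, an adaptor of that kinase, had a difference of −0.31 (SE 0.15).

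With the brightest probe set of each gene, no ligand, niche signal or transcription factor of the lineage passed. With the mean of a gene's probe sets, 2 ligands or niche signals and 1 transcription factor were higher at an unadjusted p below 0.05 in limma. Of all genes 4.58% were higher there. The most variable probe set also gave 2 and 1, against 6.52% of all genes. Of 16 measured ligands and niche signals 0 passed an unadjusted p of 0.05 (median −0.03). Csf1 and Il34, the 2 ligands of the Csf1r receptor, differed by −0.08 (SE 0.08) and 0.06 (SE 0.06), and Cx3cl1, the fractalkine ligand made by neurons, by −0.01 (SE 0.05), or 0.02 after subtracting array medians and 0.11 as the mean of its probe sets. Tgfb1, which microglia need to keep their identity, lay near 5 on every array and differed by −0.13 (SE 0.20). The nearest to passing were Cd47, the neuronal signal that restrains engulfment (−0.11, SE 0.05), and Itgb8, an integrin chain that frees transforming growth factor beta (0.13, SE 0.06). Of 10 measured myeloid transcription factors 0 passed (median −0.00): Spi1 differed by −0.12 (SE 0.12), Irf8 by 0.04 (SE 0.12; −0.11 as the mean of its probe sets), Maf by 0.27 (SE 0.13) and Cebpa by 0.19 (SE 0.10). Of 9 measured complement genes beyond C1q 0 passed, with C1ra at 0.18 (SE 0.12) and Cd55, a complement regulator, at −0.26 (SE 0.14; 0.08 as the mean of its probe sets), and of 16 measured Toll-like receptor and cytokine genes 0 passed, with Tlr13 at −0.30 (SE 0.14) and Ccl3 at −0.35 (SE 0.21). Apoe, a reactive gene that astrocytes also make, differed by 0.01 (SE 0.05).

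Marker lists of other cells are set beside the microglia genes here, and they did not share a direction. The summed linear intensity of the 31 genes was 21446 and 22012 with fluoxetine, against 22196 and 23350 in untreated mice. All 7 border macrophage markers were measured. Their sum was 411 and 462 with fluoxetine, against 469 and 494 in untreated mice. The list had a median difference of −0.17, and 5 of 7 markers had separated groups, all lower with fluoxetine, against 22.3% of all genes. At an unadjusted p below 0.05, 1 was lower, against 3.51% of all genes. That was the mannose receptor gene Mrc1, at 5.89 and 5.85 with fluoxetine against 6.27 and 6.18 in untreated mice. Mrc1 also passed without untreated replicate 2 (−0.40) and did not pass without any 1 of the other arrays (−0.38 to −0.31). All 7 lay below the median level of all genes. Of 9 blood leukocyte markers 8 were measured, with a sum of 504 and 770 with fluoxetine, against 601 and 887 in untreated mice. Their median was −0.16, 0 were past the threshold, and all 8 lay below the median level of all genes. The replicates of each group lay far apart in S100a8 (6.43 and 7.71 with fluoxetine, 6.68 and 8.12 without). S100a9 was alike, at 6.26 and 7.58 with fluoxetine and 6.69 and 8.04 without. The part of blood leukocytes, and that of border macrophages, in the microglia result was not tested.

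The 7 measured of 8 oligodendrocyte markers summed to 42376 and 42539 with fluoxetine, against 41907 and 46515 in untreated mice (median −0.12, 2 lower), and the 6 measured of 8 striatal markers to 3941 and 4667, against 4131 and 7584 in untreated mice (median −0.44, 0 past the threshold). Untreated replicate 2 was high in both lists and in the microglia genes. Without it the striatal median was 0.0012, the oligodendrocyte median 0.03 and that of border macrophages −0.17. The median of the 31 microglia genes was then −0.04, with 22 of 31 differences negative, against 49.8% of all genes. The part of neighbouring tissue, or of oligodendrocytes, in the microglia result was not tested. Astrocyte markers summed to 29770 and 30251 with fluoxetine, against 28386 and 28429 in untreated mice (7 of 7 measured, 2 higher), cortical neuron markers to 40595 and 38819, against 37911 and 38791 (7 of 8, 2 higher), and endothelial markers to 3696 and 3821, against 3604 and 3830 (6 of 6, 0 past the threshold). Of 6 erythroid markers 3 were measured and 0 passed, and of 4 choroid plexus markers 4 were measured and 0 passed. Among all genes 3.51% were lower and 3.45% higher at an unadjusted p below 0.05. The values are log2 intensities, and details of the background correction are not given. No marker was called absent.

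**Figure D3:**
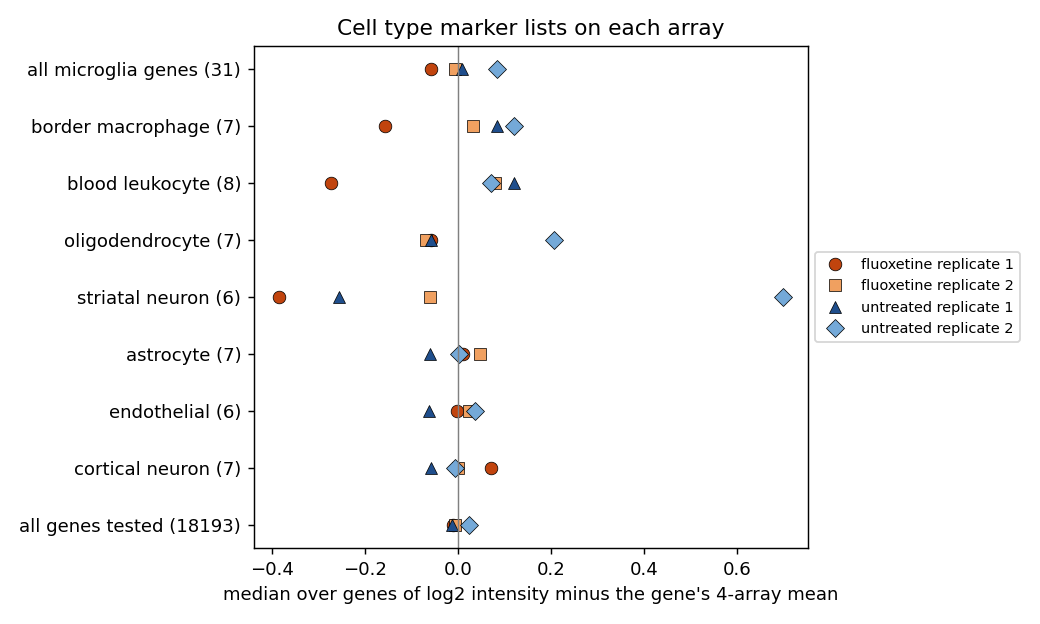
Median over each marker list (measured genes in brackets) of the log2 intensity minus the gene's mean over the 4 arrays, for each array. Untreated replicate 2 stands out to the right in striatal and oligodendrocyte markers and, at 0.08, in the microglia genes. Fluoxetine replicate 1 is the lowest array in striatal, border macrophage, blood leukocyte and microglia genes.

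The microglia median was negative under each of the 10 alternatives. It ran from −0.12 without untreated replicate 1 to −0.04 without untreated replicate 2, and it lay below the median of all genes in each. After another quantile normalization it was −0.11, with 18 of 31 genes whose groups did not overlap, all lower with fluoxetine, against 28.0% of all genes lower in that way. After subtracting array medians it was −0.04, with 7 lower and 3 higher in that way, against 14.7% and 21.5% of all genes. These settings use the same 4 arrays, or 3 of them, and are not further evidence.

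**Figure D4:**
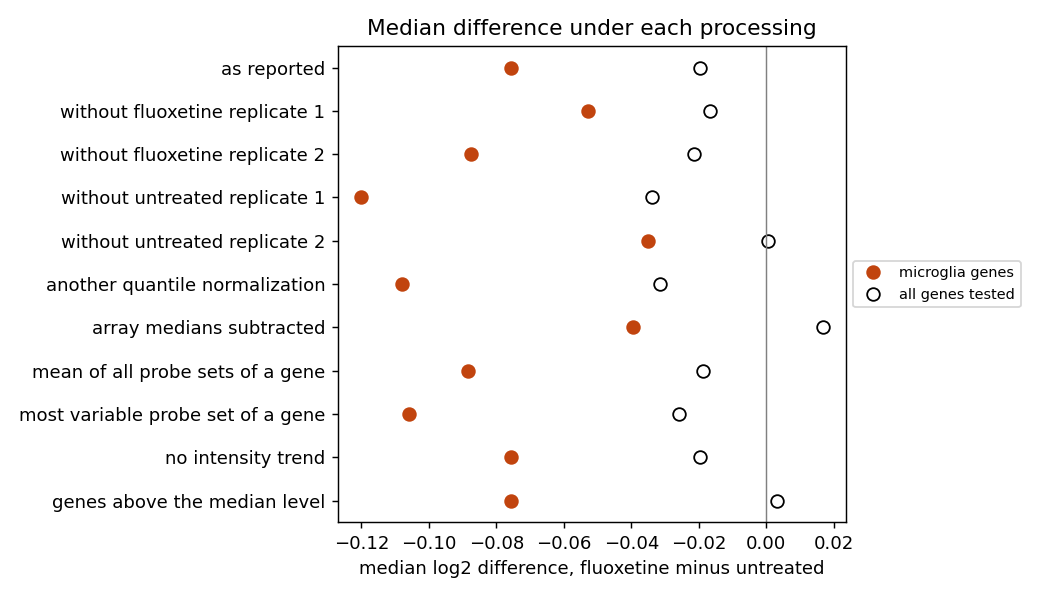
Median log2 difference, fluoxetine minus untreated, of the microglia genes (filled) and of all genes tested (open) under the reported processing and 10 alternatives. The filled points lie between −0.12 and −0.04 and left of the open point in every row.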

How the data were processed

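Total RNA from cortical punches was labelled with biotin for Affymetrix 3′ expression arrays, 2 from fluoxetine-exposed and 2 from untreated mice, per the labels' protocols. Each deposited value is a log2 intensity of 1 probe set. RMA, affy and limma are named, without versions, per the submitters' processing notes. Log base 2 was inferred from the range of the values; details of the background correction are not given. Of 45101 probe sets, 64 were array controls, 34945 had 1 gene symbol in the platform annotation, 932 had several and 9160 were unnamed here. Each gene took its probe set with the highest mean, with no filter on low values. Fluoxetine was compared with untreated by limma 3.58.1 in R 4.3.3 (lmFit, eBayes with an intensity trend, two-sided, Benjamini-Hochberg over 18193 genes, threshold 0.05), with 2 residual and 5.15 prior degrees of freedom. Other probe sets were fitted over all 34945. The code was tested on simulated data. The members and lists were chosen with earlier results of these data known, so lists are described by counts and medians and not tested. Of 213 list entries, 20 had no such probe set and were not analysed here. Named genes were all 31 members, the 2 members of each further list with the smallest p, and a fixed set. In 10 alternatives an array was left out or the normalization, centring, probe set choice, variance model or a filter on level was changed. Background light on dim probe sets can shrink their log2 differences. Ties occur: 61 genes had the same deposited value on both fluoxetine arrays.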

Additional observations from a re-analysis of the deposited data

How the results depend on the processing

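The number of arrays is the first limit: 2 against 2 leaves 2 residual degrees of freedom, no microglia gene passed over all genes, and 9 of the 31 lay below the median level, where background weighs most. No paired analysis was possible because the labels give no replicate numbers that groups share. The median kept its sign under all 10 alternatives, between −0.12 and −0.035 with an array left out. The count at an unadjusted p below 0.05 was 0 to 6 lower and 0 to 2 higher with an array left out, 7 lower after another quantile normalization (6.12% of all genes), 1 lower after subtracting array medians (2.37% of all genes), and 1 higher with the mean or the most variable probe set (4.58% and 6.52% of all genes). Genes with separated groups numbered 14 to 22 lower and 2 to 7 higher with an array left out, where 3 arrays separate more easily and 34.9% to 46.0% of all genes lay lower and 25.1% to 37.3% higher. They numbered 18 lower after another quantile normalization (28.0% of all genes), 7 lower and 3 higher after subtracting array medians (14.7% and 21.5% of all genes), and 1 higher with the mean or the most variable probe set (17.8% and 18.2% of all genes). The 3 genes at an unadjusted p below 0.05 kept a negative difference under every alternative, but they did not all pass that threshold in each. For Lgals3bp, P2ry13 and Tyrobp the differences ran from −0.43 to −0.19, −0.33 to −0.18 and −0.23 to −0.08 with an array left out. Differences whose sign turned with an array left out ran over these ranges: Csf3r −0.52 to 0.051, P2ry12 −0.035 to 0.040, Gpr34 −0.027 to 0.025, Sall1 −0.11 to 0.18, Fcrls −0.14 to 0.00077, C1qa −0.12 to 0.062, C1qb −0.17 to 0.016, Trem2 −0.097 to 0.028, Fcgr3 −0.16 to 0.074, Cd33 −0.18 to 0.021, Laptm5 −0.019 to 0.22, Cd68 −0.20 to 0.082, Itgam −0.0017 to 0.38, Aif1 −0.24 to 0.089, Cx3cl1 −0.063 to 0.035, Tgfb1 −0.36 to 0.089, Irf8 −0.052 to 0.14 and Apoe −0.057 to 0.077. After another quantile normalization, P2ry12 stood at −0.034 and Apoe at −0.0017. After subtracting array medians, Gpr34 stood at 0.035, C1qa at 0.0073, Trem2 at 0.0017 and Cx3cl1 at 0.022. With the mean of a gene's probe sets, Sall1 stood at −0.026, Laptm5 at −0.032, Cd55 at 0.082, Cx3cl1 at 0.11 and Irf8 at −0.11. With a gene's most variable probe set, Sall1 stood at −0.087, Laptm5 at −0.26, Cd55 at 0.26, Cx3cl1 at 0.19 and Irf8 at −0.27. The cause of these turns was not tested.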
